A study of Mus musculus with 3 samples.

Results

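The stretch of mouse chromosome 1 from 60780000 to 61080000 (mm9) holds Cd28, Ctla4 and Icos in this order, and every BACH2 or JunD peak that overlapped it by at least 1 bp was taken as a member. It held 18 of the 9133 BACH2 peaks and 20 of the 5237 JunD peaks, which is 38 of 14370 peaks in all. Binding was mapped by ChIP-seq, in which DNA crosslinked to a protein is pulled down with an antibody and sequenced. Each factor had 1 library, so no difference here could be tested against replicate error. The cells of the BACH2 ChIP, the JunD ChIP and the input were wild-type C57BL/6 splenic CD4+ T cells from mice aged 8 to 12 weeks. They had been kept for 4 days on plates coated with antibodies to CD3ε and CD28, with TGF-β in the medium, a culture that yields induced regulatory T cells (iTreg cells). The stimulus thus engaged the product of Cd28 itself, along with CD3ε, in all 3 libraries of the series. There is no ChIP from resting or conventional T cells among them, and the state of the cells could not be checked against marker genes, since the peak lists hold no expression values. The antibody text names 2 catalogue numbers after JunD without saying which of them gave the library. The members were chosen by the positions of the called peaks, in a locus proposed with its peak numbers known, so its density and overlap are descriptions.

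CD28 is the main costimulatory receptor of T cells. It is engaged by CD80 and CD86 on antigen-presenting cells and lowers the threshold for activation through the T cell receptor. CTLA-4 binds the same ligands with higher affinity and acts as an inhibitory receptor. It is abundant in regulatory T cells, which use it to limit the ligands that other T cells can reach. ICOS, the inducible costimulator, binds ICOS ligand, appears on the surface after activation and supports helper and regulatory T cell function. BACH2 is a basic leucine zipper repressor that restrains effector genes in T cells, while JunD is a subunit of the activator protein AP-1. Dimers of either can recognise AP-1-like DNA sequences, so both may occupy the same elements of a locus.

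No mm9 annotation was used, and a peak is therefore given by its position and not by exon, intron or promoter. The RefSeq gene table of another build, GRCm38.p6, served only for the order of genes. It lists 1 protein-coding gene, Ctla4, between Cd28 and Icos, along with 4 lncRNA genes and 4 pseudogenes. For the same reason no peak sequence is printed, and the promoter of Ctla4 is shown as the only one of the 3 members with an entry in the RefSeq promoter table used. It lies on the plus strand of chromosome 1, and these are the 250 bases before the annotated start in GRCm38.p6.
Ctla4 promoter: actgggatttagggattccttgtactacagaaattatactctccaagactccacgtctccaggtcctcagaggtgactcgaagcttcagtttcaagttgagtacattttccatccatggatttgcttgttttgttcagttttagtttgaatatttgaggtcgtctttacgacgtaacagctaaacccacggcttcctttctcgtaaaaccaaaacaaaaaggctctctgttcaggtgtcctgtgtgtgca
These letters were searched on both strands for the AP-1 element TGANTCA and for TGACGTCA, the cyclic AMP response element that some AP-1 dimers bind. Neither matched, so the sequence carries no capitals. Among 32851 promoters of the same length in the table, 6.75% held TGANTCA and 1.55% held TGACGTCA. The result says only that these letters are not in this stretch. Whether a peak lies on it was not analysed here, because the peaks are in mm9.

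Both factors had many peaks in the locus. BACH2 peaks came to 60.0 per Mb in the window, against 3.47 per Mb over all chromosomes up to their last peak. JunD peaks came to 66.7 per Mb in the window, against 1.99 per Mb over all chromosomes. These are 17.3 times and 33.5 times the density of the whole list. In fixed blocks of 300 kb, 8772 over the genome, the median block held 0 BACH2 and 0 JunD peaks, and 90% held at most 3 BACH2 or 2 JunD peaks. Block borders cut clusters, whereas the window was laid around the genes, so stretches of 300 kb beginning at any peak were counted as well. By that count, 18 or more BACH2 peaks were reached in 20 separate places on 12 chromosomes, the locus included, with a maximum of 32. As many as 20 JunD peaks were reached in 3 separate places on 3 chromosomes, again with the locus among them, and with a maximum of 24. Since the lists carry different scores and unknown thresholds, a longer list does not mean more sites bound.

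The window was split into 3 equal segments of 100 kb, in gene order, as a stand-in for a division among the genes. A count in a segment gives position in the window and assigns no peak to a gene. By general knowledge of the locus Cd28 lies in the first segment, Ctla4 in the middle and Icos in the last, but gene borders were not read from an annotation of this build. Peaks were placed by the BACH2 summit or the centre of the JunD peak. The first segment, with Cd28, held 4 BACH2 and 5 JunD peaks. The middle segment, with Ctla4, held 8 BACH2 and 12 JunD peaks. The last segment, with Icos, held 6 BACH2 and 3 JunD peaks. The middle segment thus had most of the JunD peaks, 60.0% of them (95% Wilson interval 38.7 to 78.1), and 44.4% of the BACH2 peaks (24.6 to 66.3). The last segment had 33.3% of the BACH2 peaks (16.3 to 56.3) and 15% of the JunD peaks (5.24 to 36.0). These intervals cover the counting of peaks only, as if peaks were independent, and they overlap between the factors. Whether the lists divide differently was not tested, and the peaks are few. The JunD split also depended on where the inner borders were drawn, because a group of JunD peaks ends close to the border between the middle and last segments. With both borders moved by 10 kb to the left, the middle segment held 8 BACH2 and 7 JunD peaks and the last 6 BACH2 and 8 JunD peaks. With both moved by 20 kb to the left, the middle held 7 BACH2 and 6 JunD peaks and the last 7 BACH2 and 10 JunD peaks. Whether each gene stays within its segment after a shift could not be checked without gene borders. With both inner borders moved 10 kb to the right, the middle held 8 BACH2 and 12 JunD peaks and the last 6 and 3. At 20 kb to the right these counts were 9 and 13, and 4 and 1. The factor with more peaks in the middle and in the last segment thus turned with the leftward shifts only.

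**Figure D1:**
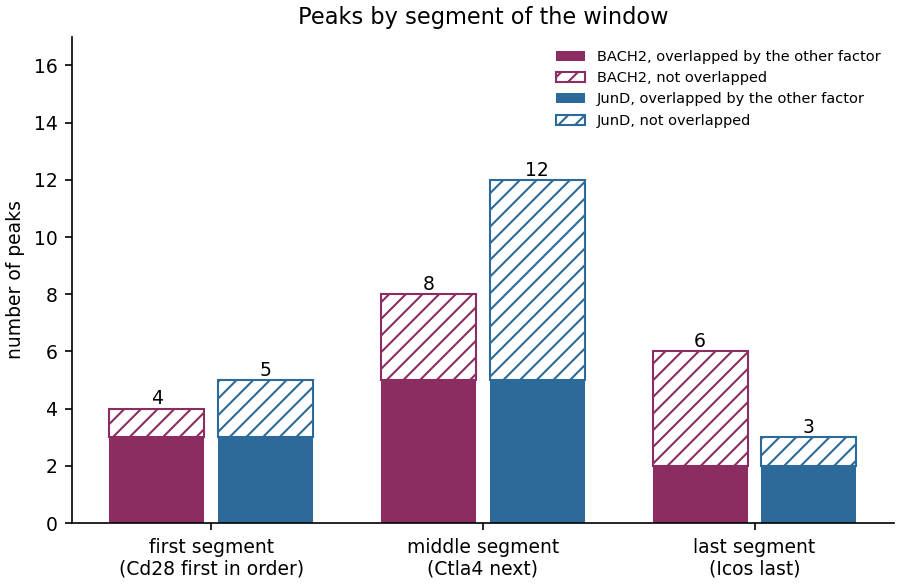
Number of BACH2 and JunD peaks in each 100 kb segment of the window, 1 library per factor, with solid bars for peaks overlapped by the other factor and hatched bars for the rest. JunD had 12 of its 20 peaks in the middle segment, and the last segment held 6 BACH2 and 3 JunD peaks, an order that turned to 6 and 8 with the inner borders 10 kb further left.

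By overlap with the other factor, 10 of the 18 BACH2 peaks of the window were shared, or 55.6% (33.7 to 75.4), where 29.3% of all BACH2 peaks in the series met a JunD peak. Of the 20 JunD peaks, 10 were shared, or 50% (29.9 to 70.1), where 48.8% of all JunD peaks met a BACH2 peak. The JunD share of the locus was near that of the whole list and the BACH2 share was higher than in the list, as a description of neighbouring peaks in a locus chosen with its peaks known. With the stronger 50% of each list, 4 of 11 BACH2 peaks of the window were shared, or 36.4% (15.2 to 64.6), where the list had 22.3%. Asking that at least 50% of both peaks be covered left 5 shared peaks of each factor, which made 27.8% of the BACH2 peaks (12.5 to 50.9), where the whole list had 15.3%, and 25.0% of the JunD peaks, where the whole list had 26.6%. In the first segment a partner lay on 3 of 4 BACH2 and on 3 of 5 JunD peaks. In the middle segment these counts were 5 of 8 and 5 of 12, and in the last segment 2 of 6 and 2 of 3.

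**Figure D2:**
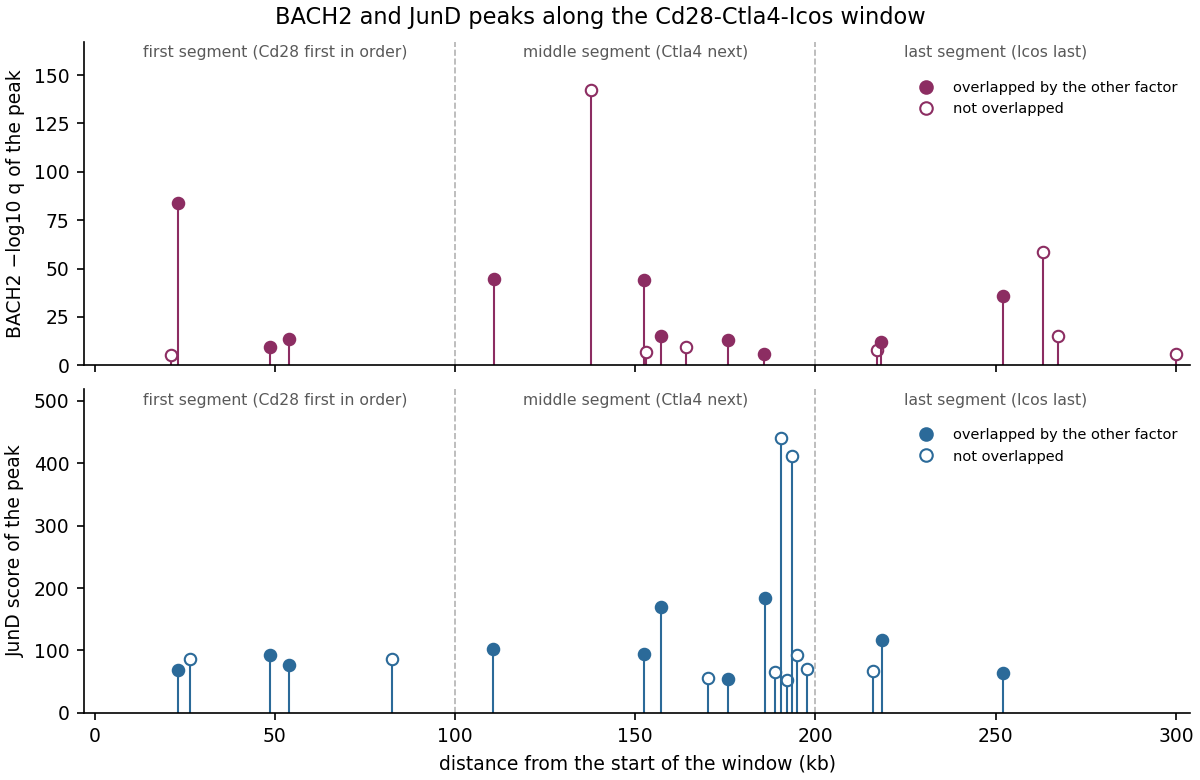
Every BACH2 peak (top, height −log10 q) and JunD peak (bottom, height score) of the window, by distance from its start in kb, with filled points for peaks overlapped by the other factor and dashed lines between segments. The tallest BACH2 peak, at 142, and the tallest JunD peak, at 441, both lie in the middle segment, are both open, and stand apart from each other.

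In the first segment, the Cd28 end of the locus, BACH2 was led by a strong peak at chr1:60802870-60803347. Its fold enrichment, the authors' value over the caller's background, was 13.8, and its −log10 q was 83.7, which ranked 375 of 9133. The JunD peak on it, at chr1:60802915-60803520, had a score of only 68.2 and ranked 3421 of 5237. A site near the top of the BACH2 list was thus in the weaker part of the JunD list. A weak BACH2 peak lay just before it at chr1:60801054-60801313, with a −log10 q of 5.42 and no JunD peak, and a JunD peak without BACH2 lay after it at chr1:60806061-60806633, with a score of 86.0. A pair of shared sites followed. At chr1:60828699-60828875 BACH2 had a −log10 q of 9.68, inside a JunD peak of score 92.9. At chr1:60833869-60834061 BACH2 had a −log10 q of 13.4, inside a JunD peak of score 77.1. Both were modest sites, ranked between 41.3% and 58.9% of the way down their lists. From there BACH2 had no peak for 56.4 kb, its longest empty stretch in the window, and only 1 JunD peak fell in it, at chr1:60862413-60862803 with a score of 86.7.

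In the middle segment, the Ctla4 part of the locus, the factors were strongest at different places. The strongest BACH2 peak of the window lay at chr1:60917290-60917784, where its −log10 q was 142 and its fold enrichment 15.97, and it ranked 95 of 9133. The nearest JunD peak lay 14.2 kb away, and JunD had none over 41.0 kb around it. That site is in the top 1.04% of the BACH2 list and has no counterpart among the JunD peaks. In the strongest 20% of that list, 1045 of 1829 peaks had none. The site was flanked by shared sites. Before it, at chr1:60890489-60890889, BACH2 had a −log10 q of 44.8 and JunD a score of 102.9. After it, at chr1:60932124-60932563, BACH2 had a −log10 q of 44.0 and JunD a score of 94.8. In both pairs BACH2 was in the top 12.1% of its list and JunD in the top 40.1%.

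Further along the middle segment no BACH2 peak exceeded a −log10 q of 15.1, while JunD scores ran up to 441. A small BACH2 peak of −log10 q 7.08 at chr1:60932824-60932987 lay 216 bp from the nearest JunD peak. At chr1:60937009-60937370 a BACH2 peak of −log10 q 15.1 lay under a JunD peak of score 168.8, ranked 748. At chr1:60944024-60944224 BACH2 had a −log10 q of 9.39 and no JunD peak. The JunD peak at chr1:60949967-60950431 had a score of 55.6 and no BACH2 peak. At chr1:60955650-60955998 both were weak, with a −log10 q of 12.8 and a JunD score of 53.7. At chr1:60965758-60965919 the weakest BACH2 peak of the 10 shared ones, with a −log10 q of 6.01 and a fold enrichment of 3.31, lay inside a JunD peak of score 184.0. That JunD peak covered chr1:60965446-60966341 and ranked 637 of 5237.

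The JunD peaks then crowded together where BACH2 had none. From 60968646 to 60977742, within 9.10 kb, 6 JunD peaks followed each other and no BACH2 peak was listed. The strongest 2 JunD peaks of the window were among them. The peak at chr1:60969962-60970738 had a score of 441 and ranked 97 of 5237, and the peak at chr1:60972513-60974534, 2022 bp wide, had a score of 412 and ranked 115. Between them lay a weak peak at chr1:60971850-60972219 with a score of 53.2. The other members were at chr1:60968646-60969133 with a score of 64.8, at chr1:60974547-60975066 with 92.2 and at chr1:60977335-60977742 with 69.8. The 2022 bp peak and its neighbour at 60974547 were listed separately although only a few bases part them. The 6 peaks held 46.2% of the summed JunD score of the window, a score of unstated scale. Most of their sum of 1133 came from the peaks of score 441 and 412. Their distance to the nearest BACH2 peak ran from 2.73 to 11.4 kb.

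The stretch between neighbouring BACH2 peaks around this group, from 60965920 to 60996973, was 31.1 kb long and held 7 JunD peaks. Over the genome there were 9113 such stretches between neighbouring BACH2 peaks, with a median length of 42.8 kb, and 7280 of them held no JunD peak. As many as 7 JunD peaks occurred in 5 of them, and of these the stretch in the locus was the shortest. When JunD peaks at most 10 kb apart were joined, the group became part of a run of 9 JunD peaks over 27.8 kb, from 60949967 to 60977742, of which 2 were shared. Only 6 of the 4084 JunD runs in the series had as many peaks, this run included. The group was picked after its values were seen, so these counts describe it and test nothing. Without this run, 8 of the remaining 11 JunD peaks of the window were shared, or 72.7% (43.4 to 90.3). The whole list without the run had 48.9%. A rise in the window was built in, since only 2 of the 9 peaks left out were shared. The middle segment then held 3 JunD peaks.

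**Figure D3:**
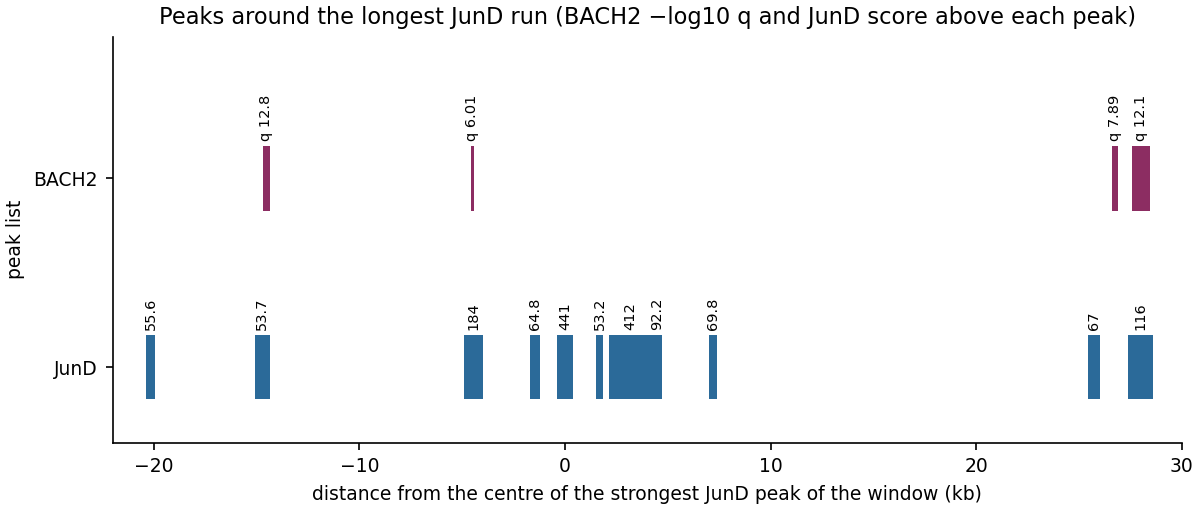
BACH2 peaks (top row) and JunD peaks (bottom row), drawn to scale by distance in kb from the centre of the strongest JunD peak of the window, with BACH2 −log10 q or JunD score written above each. The JunD peaks of score 441 and 412 lie within the 31.1 kb in which BACH2 has no peak.

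The last segment, the Icos end of the locus, began with a JunD peak of score 67.0 at chr1:60995781-60996384 and a BACH2 peak of −log10 q 7.89 at chr1:60996974-60997257, which lay 589 bp apart and did not overlap. A wide shared site followed at chr1:60997931-60998796, where BACH2 had a −log10 q of 12.1 and the JunD peak, 1201 bp wide, a score of 116.3. After 33.2 kb without a BACH2 peak and 32.9 kb without a JunD peak, the last shared site lay at chr1:61031963-61032292. The BACH2 peak had a −log10 q of 35.9 at 9.67-fold enrichment and ranked 1442, while the JunD peak had a score of 63.2 and ranked 3860. No JunD peak was listed in the remaining 47.6 kb of the window. BACH2 had 3 peaks there. The first, at chr1:61042808-61043284, had a −log10 q of 58.4 at 13.0-fold enrichment and ranked 724 of 9133. It was followed by an 827 bp wide peak at chr1:61047053-61047879 with a −log10 q of 15.1, and by a weak peak at chr1:61079789-61080065 with a −log10 q of 5.87. The right end of the window thus held BACH2 peaks and no listed JunD peak, and its first BACH2 peak was the third strongest of the window.

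Where the factors met, the distance between their points and the difference in their ranks were, by median, about those of all pairs of the series. Pairs were defined by overlap, so a short distance was partly built in. In the 10 overlapping pairs the BACH2 summit lay 25 to 110 bp from the JunD centre, with a median of 58.5 bp, where the median over the 2677 pairs of the series was 55 bp. The JunD peak covered the BACH2 peak whole in 8 of the 10 pairs, and covered 99.4% and 90.6% of it in the others. Such cover was usual, since 2633 of the 2674 overlapped BACH2 peaks of the series were covered by at least 50%. JunD peaks were also wider, with a median of 553 bp against 267 bp over the lists. Whole cover was not counted over the series. The strongest BACH2 peaks among the pairs, those of −log10 q 83.7, 44.8, 44.0 and 35.9, met JunD scores of 68.2, 102.9, 94.8 and 63.2. The strongest JunD peaks among the pairs, those of score 184.0 and 168.8, met BACH2 peaks of −log10 q 6.01 and 15.1. The pairs closest in rank were modest sites, among them the one at 60833869, with BACH2 at 44.1% and JunD at 54.6% of the way down the lists. Over the 10 pairs the ranks differed by 10.5 to 69.3 percentage points, with a median of 26.6, where the median over all pairs of the series was 27.0. Both peaks were in the strongest 20% of their lists in 0 of the 10 pairs, where 9.68% of the 2677 pairs were, a share at which 10 pairs are too few to show a difference. Ranks are compared within each list only, since the scores are on different scales.

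**Figure D4:**
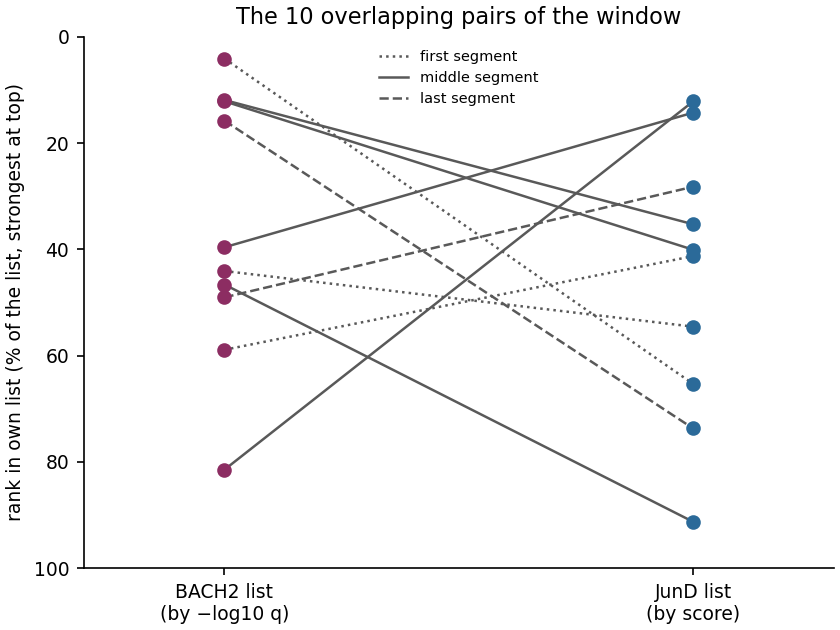
Rank of the BACH2 peak (left) and of the JunD peak (right) within its own list, in percent of the list with the strongest at the top, for the 10 overlapping pairs, with line styles for the segments. The lines cross, so that the BACH2 peak ranked at 4.11% meets a JunD peak at 65.3% and the BACH2 peak at 81.5% meets a JunD peak at 12.2%.

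As a group the peaks of the locus were of ordinary strength. The 18 BACH2 peaks had a median −log10 q of 13.1, against 11.8 in the whole list, and a median fold enrichment of 5.10, against 5.75. By −log10 q, 11 of the 18 (61.1%, interval 38.6 to 79.7) were in the stronger 50% of the list, where ties put 50.2% of all peaks. By fold enrichment, 7 of the 18 (38.9%) were in the stronger 50%, so whether the group lies above or below the middle of the list turned on the measure. The 20 JunD peaks had a median score of 86.3, against 81.6 in the whole list, and 11 of them (55.0%, interval 34.2 to 74.2) were in the stronger 50%, where 50% of all peaks were. In the strongest 20% there were 6 BACH2 and 4 JunD peaks of the window, where 20% of all peaks of each list were. All 4 of these JunD peaks lay in the middle segment, while the 6 BACH2 peaks were spread as 1, 3 and 2 over the first, middle and last segments.

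Peaks of the window were a little wider than those of the whole lists, since the median BACH2 width was 339.5 bp (267 bp over the list) and the median JunD width 616.5 bp (553 bp over the list). Shared BACH2 peaks of the window had a median −log10 q of 14.3 and those without JunD one of 8.64. Shared JunD peaks had a median score of 93.9 and those without BACH2 one of 77.9. The same order held over the whole series, with 15.7 and 10.9 for BACH2 and 96.9 and 72.7 for JunD. In the window the single strongest peak of each list was not shared. Strong peaks without the other factor were common over the series. In the strongest 20%, 1045 of the 1829 BACH2 peaks and 337 of the 1048 JunD peaks were not overlapped.

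The peaks of the locus were set off on the left and not on the right. The first BACH2 peak inside the window lay 21.2 kb past its start, and the nearest one outside, with a −log10 q of 4.59, lay 95.4 kb before it. For JunD the first peak inside lay 23.2 kb past the start, and the nearest one outside, with a score of 295.7, lay 706.8 kb before it. On the right, the last BACH2 peak straddled the border and the next one lay 3.80 kb beyond it, with a −log10 q of 24.3. A JunD peak of score 56.3 overlapped that next BACH2 peak. The window thus cuts a run of 3 BACH2 peaks that ends at 61084823, and with the window widened by 50 kb on each side it would hold 23 BACH2 and 23 JunD peaks.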

How the data were processed

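The submitters' processing notes name Bowtie 0.12.9 as the aligner and mm9 (NCBIM37) as the genome build. Which peak caller version and which control were used, and whether libraries were pooled, is not given in the sources used here. The depth behind the peaks is unknown. The BACH2 list the authors deposited gives each peak a fold enrichment, a −log10 p, a −log10 q and a summit, read from the narrowPeak layout. A whole-number display score in that deposited list was not used. The JunD list the authors deposited gives each peak a single score, of unstated scale and at least 50. All of these values belong to the single peak as the authors' caller gave them, and peaks were ranked only within their own list.

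Members were all peaks with at least 1 bp in the window, with positions counted from 1. The window, the segments and the other measures were chosen with earlier results of these data known. Every peak of the window is given, following the rule that all members be described. Shares carry Wilson intervals at the 95% level for counting error alone. No test was run, since each factor had 1 library. The input had no file to analyse here. Overlap counting was tested on simulated data with planted overlaps. The assignment of peaks to the nearest gene was planned and not run, for want of an mm9 annotation. Alternatives changed the overlap required, the threshold, the peak width, the joining of neighbours, the window and the borders of the segments. The tools were scipy 1.17.1, pandas 2.3.3, numpy 2.4.6 and Python 3.11.15.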

Additional observations from a re-analysis of the deposited data

How the results depend on the processing

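No paired analysis was possible because each factor had 1 library, and none could be left out in turn. Asking for at least 50% of both peaks to be covered gave 27.8% of BACH2 and 25.0% of JunD peaks shared. The whole lists had 15.3% and 26.6%. Covering 50% of the JunD peak alone gave 25.0%, where the whole list had 27.0%. Leaving out the run of 9 JunD peaks, an alternative chosen after the data were seen, gave 72.7% of JunD peaks shared. The whole list without it had 48.9%, and the middle segment then held 3 JunD peaks. The other 9 alternatives for the shares stayed within the counting intervals of the reported shares. With only the stronger 50% of each list, the window held 11 BACH2 and 11 JunD peaks, with 2 BACH2 and 3 JunD peaks in the first segment, 5 and 7 in the middle and 4 and 1 in the last. Joining peaks at most 10 kb apart left 10 BACH2 and 8 JunD regions, and joining within 1 kb left 16 and 17. Moving the inner borders to the left by 10 or 20 kb gave 7 or 6 JunD peaks in the middle and 8 or 10 in the last segment, and moving them 20 kb to the right left 1 JunD peak in the last. The share of BACH2 peaks in the stronger 50% of the list was 61.1% by −log10 q and 38.9% by fold enrichment. For JunD it was 55.0%, and 50% with peaks up to 1 kb wide only, an alternative also chosen after the data were seen. The nearest-gene division was not run. An empty stretch is one without a listed peak, since weaker sites were not listed and the depth is unknown.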
